A study of Mus musculus with 70 samples.

Results

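The Treg identity genes are 6 genes by which a regulatory T cell (Treg) is usually recognised: Foxp3, Ikzf2, Ikzf4, Ctla4, Nrp1 and Izumo1r. They were chosen by name, with earlier results of these data known. Each symbol matched 1 of the 53465 gene identifiers in the count table, and all 6 were among the 13173 protein-coding genes that passed the filter on low counts. The study compared Tregs that carry ST2, the receptor for interleukin-33 encoded by Il1rl1, with Tregs that lack it, in 6 tissues. RNA of 70 small sorted pools of cells was sequenced. The pools came from 5 male mice aged 16.6 to 18.6 weeks that carried the Foxp3tm4(YFP/icre)Ayr allele on a B6.129(Cg) background, here called Foxp3-YFP-cre. All groups share this reporter allele, and since Foxp3 lies on the X chromosome, the only Foxp3 copy of each male carries YFP and Cre. No mouse without the reporter was part of the comparison, and the labels give no treatment. From each of back skin, colon, abdominal visceral adipose tissue (VAT), lungs, spleen and blood, CD44hi Tregs were sorted with ST2 and without it, which makes 12 of the 14 groups. The other 2 were resting Tregs, ST2- CD44lo CD62L+, from lungs and from spleen. CD44 marks T cells that have responded to antigen.

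The sort kept live CD45.2+ CD4+ YFP+ cells without CD8 or CD11b among other lineage markers, then split them by ST2, CD44 and CD62L. A Treg was therefore called by the Foxp3 reporter itself, so the presence of Foxp3 transcript in a library is no finding. The levels of Il1rl1 and Cd44, genes of other gates, are not results between groups. Each mouse gave 1 library per group, so replicate numbers name mice. The pools were of 220 cells by design, and 8 libraries held fewer, with 55 cells in the smallest. In VAT these were ST2- mice 2 to 5, with 93, 192, 118 and 135 cells, while every VAT ST2+ pool had 220. In blood they were ST2+ mice 1 to 3, with 66, 202 and 55 cells, and ST2- mouse 1, with 166. Cell number thus went with group in VAT.

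Foxp3 encodes the forkhead transcription factor that specifies the Treg lineage. Ikzf2 encodes Helios and Ikzf4 encodes Eos, Ikaros family zinc finger factors that work with Foxp3 in gene activation and repression. Ctla4 encodes the inhibitory receptor by which Tregs compete for and remove CD80 and CD86 on antigen-presenting cells. Nrp1 encodes neuropilin-1, a semaphorin and VEGF co-receptor much used to tell thymus-derived Tregs from induced ones. Izumo1r encodes folate receptor 4, a surface protein of Tregs, also known as Juno on the egg.

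In GRCm38 with GENCODE M21, Foxp3 (ENSMUSG00000039521) lies at chrX:7573644-7595245 on the plus strand, Ikzf2 (ENSMUSG00000025997) at chr1:69531214-69687245 on the minus strand and Ikzf4 (ENSMUSG00000002578) at chr10:128630843-128645991 on the minus strand. Ctla4 (ENSMUSG00000026011) lies at chr1:60887000-60915832 on the plus strand, Nrp1 (ENSMUSG00000025810) at chr8:128358604-128503363 on the plus strand and Izumo1r (ENSMUSG00000031933) at chr9:14885814-14903949 on the minus strand. The RefSeq promoter table (GRCm38.p6) had entries for 4 of the 6 genes, Foxp3 (with 2 start sites), Ctla4, Nrp1 and Izumo1r. Below are the 250 bases before a start for 3 genes whose levels moved differently between tissues: Foxp3, high in skin; Nrp1, low in skin; and Ctla4, low in blood and spleen. All 250 bases of the Foxp3 entry lie in annotated exons of the noncoding gene Flicr, and none of the Nrp1 or Ctla4 entry lies in an exon. The Foxp3 entry is the second start, chrX:7580233-7580482 (+), the Nrp1 entry chr8:128358823-128359072 (+) and the Ctla4 entry chr1:60908775-60909024 (+), and capitals mark the letters of a searched motif.
Foxp3 start 2: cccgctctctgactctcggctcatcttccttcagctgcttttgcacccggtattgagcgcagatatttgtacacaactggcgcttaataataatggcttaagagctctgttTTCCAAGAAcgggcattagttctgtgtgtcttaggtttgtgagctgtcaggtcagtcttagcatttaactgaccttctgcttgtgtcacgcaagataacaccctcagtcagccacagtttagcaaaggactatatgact
Nrp1: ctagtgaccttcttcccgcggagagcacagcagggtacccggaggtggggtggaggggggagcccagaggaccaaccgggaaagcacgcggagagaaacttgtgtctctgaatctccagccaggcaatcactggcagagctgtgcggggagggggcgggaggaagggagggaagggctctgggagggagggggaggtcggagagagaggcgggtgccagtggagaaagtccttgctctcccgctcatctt
Ctla4: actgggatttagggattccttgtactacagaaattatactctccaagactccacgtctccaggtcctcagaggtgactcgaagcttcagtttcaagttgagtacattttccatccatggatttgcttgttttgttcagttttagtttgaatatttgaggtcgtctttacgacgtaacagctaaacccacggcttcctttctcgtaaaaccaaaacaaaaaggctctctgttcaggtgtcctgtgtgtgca

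Each whole 300-base window, 250 bases before to 50 after the start, was searched for 5 motifs. The second Foxp3 window held TTCNNNGAA (STAT, both strands), a motif in 8.3% of the 32851 windows of this length, at -139 to -131 from the start. The first Foxp3 window held TATAAA (core promoter box, given strand only, 8.32% of windows) at -32 to -27, and the Ctla4 window held it at 41 to 46 after the start. The Izumo1r window held TGTGGT (Runx, both strands, 16.8% of windows) at -127 to -122 on the opposite strand. Neither TGTTTAC (forkhead, both strands, 3.65%) nor TGANTCA (AP-1, both strands, 7.81%) was in any of the 5 windows, and the Nrp1 window held none of the 5 motifs. The Nrp1 window was 64.0% GC, the first Foxp3 window 40.7%, and the median of all windows 52.7%. These are matches of letters, not binding sites.

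Libraries with over 1000000 counts were used, which left out blood ST2+ mouse 1 and colon ST2+ mice 2 and 5. The 67 libraries kept held 1304560 to 2759926 counts, so that blood ST2+ had 4 libraries, colon ST2+ had 3 and every other group had 5. The 5 T cell markers (Cd3e, Cd3g, Cd4, Trac, Lck) were detected in every group. Myeloid, fibroblast, epithelial and B cell markers had their highest median sums in colon ST2+ libraries, while those of CD8 T and NK cells were highest in VAT ST2+ (median 98.5 counts per 1000000, CPM), of endothelial cells in lungs CD44lo (358 CPM) and of red blood cells in blood ST2+ libraries (138 CPM). Of the 4 endothelial markers, 3 had no count in any lungs CD44lo library, so the remaining marker made up that sum. In colon ST2+ libraries, 7 myeloid markers summed to 871 to 1047 CPM and 4 fibroblast markers to 254 to 759 CPM. The fibroblast sum was 6.82 to 474 CPM in colon ST2-, 38.1 to 572 in skin ST2- and 2.13 to 79.1 in skin ST2+ libraries. The part of these cells in the values below was not tested, but counts without the colon ST2+ libraries, and without the colon and skin ST2- library highest in fibroblast markers, are given beside the comparisons. CPM below are scaled by trimmed-mean (TMM) library factors, and a gene was called different between groups at a fold of at least 1.5 and an adjusted p of at most 0.05 (edgeR quasi-likelihood test, Benjamini-Hochberg over all tested genes).

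All 6 genes were detected in all 67 libraries, and the lowest count of any of them was 16, for Izumo1r. Per kilobase of exon, Ctla4 had the highest median level with 348 CPM per kb, the rank of 17 among the tested genes. Izumo1r followed with 161, Ikzf2 with 85.9, Foxp3 with 36.5, Nrp1 with 32.5 and Ikzf4 with 28.8 CPM per kb. The factor that defines the lineage was thus not its most abundant transcript. Between the highest and the lowest of the 14 group means, Foxp3 differed 2.74-fold, Ikzf2 3.87-fold, Ctla4 4.32-fold and Ikzf4 4.69-fold. Nrp1 differed 14.8-fold and Izumo1r 32.0-fold, and for both the lowest group was in skin.

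**Figure D1:**
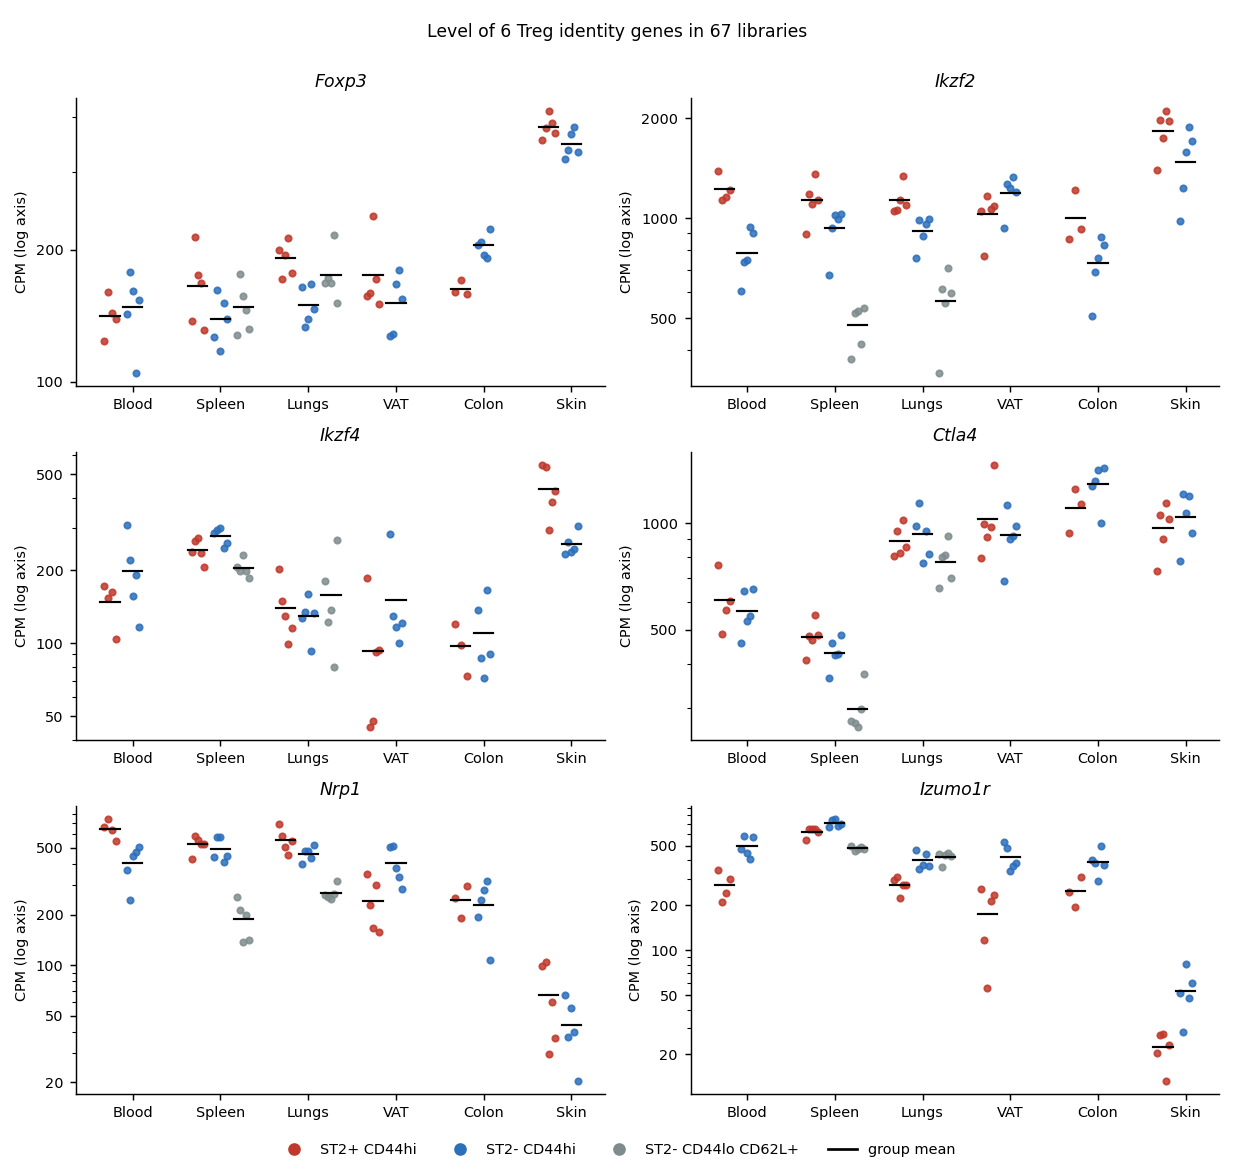
Level of each of the 6 genes in every library (CPM, log axis) by tissue, with ST2+ CD44hi in red, ST2- CD44hi in blue and ST2- CD44lo CD62L+ in grey; each point is 1 library and each line a group mean. Foxp3 is highest and Nrp1 and Izumo1r are lowest in skin, while Ctla4 is lowest in the spleen and blood groups.

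The share of all tested genes called gives the background for each pair of tissues. Among ST2- Tregs, skin against blood, spleen, lungs, VAT and colon called 30, 30.9, 20.1, 18.1 and 15.6% of tested genes, colon against the first 4 of these 15.2, 11, 5.91 and 1.8%, VAT against the first 3 9.77, 5.78 and 1.64%, lungs against blood and spleen 3.14 and 4.03%, and spleen against blood 3.38%. Among ST2+ Tregs, in the same order, skin called 27.3, 29.1, 17.9, 21.9 and 17% of tested genes, colon 10.4, 10.4, 3.76 and 4.02%, VAT 10.7, 11.2 and 3.65%, lungs 4.43 and 4.87%, and spleen 4.11%. In both populations the skin comparisons called the most genes.

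Across tissues, the question was whether Tregs of one site carry the same amounts of these transcripts as Tregs of another. Foxp3 was highest in skin in both CD44hi populations. In skin, Foxp3 was 355, 379, 414, 389 and 368 CPM in ST2+ libraries of mice 1 to 5 and 321, 337, 367, 381 and 334 CPM in ST2- libraries. No skin library overlapped one of another tissue, since ST2- libraries had 321 to 381 CPM in skin against 105 to 223 CPM in the other tissues, and ST2+ libraries 355 to 414 CPM in skin against 124 to 239.01 CPM in the other tissues. The mean was 381 ± 22.4 CPM (SD, n = 5) in skin ST2+ and 348 ± 25.0 CPM (SD, n = 5) in skin ST2- Tregs. Skin exceeded each of the other 5 tissues, by 1.99 to 2.69-fold among ST2+ and by 1.70 to 2.50-fold among ST2- Tregs. All 10 comparisons were called, with adjusted p of at most 4.57e-06, beside 17 to 29.1% of all tested genes in the ST2+ and 15.6 to 30.9% in the ST2- skin comparisons.

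Among blood, spleen, lungs, VAT and colon, no Foxp3 comparison was called in either population. Colon ST2- Tregs came nearest, with 204, 209, 195, 192 and 223 CPM, against 126, 162, 118, 151 and 139 CPM in spleen ST2- Tregs. All colon ST2- libraries lay above all ST2- libraries of blood, spleen, lungs and VAT, the highest of which had 180.2 CPM. Against these 4 tissues colon ST2- Tregs differed by folds of 1.35 to 1.47, under the limit, with adjusted p from 0.00116 against spleen to 0.0489 against VAT. Among ST2+ Tregs the log2 differences of colon from the same 4 tissues ran from -0.23 against lungs to 0.20 against blood, with adjusted p of at least 0.430. Ranked by mean, the groups ran from skin ST2+ and skin ST2- to spleen ST2-, the lowest with 139 ± 17.8 CPM (SD, n = 5). In this order only the step from skin ST2- to colon ST2- was a call between neighbours. Part of the Foxp3 count is uncertain, since 853 of its exon bases are shared on the same strand with the noncoding gene Flicr, itself highest in skin ST2+ at 68.1 and lowest in lungs ST2- at 15.2 CPM. On the opposite strand it shares 590 exon bases with Ccdc22, 373 with Gm36995 and 266 with Ppp1r3f. The strand setting of the counting is not given, so these bases may be affected too.

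Tissue and its dissociation cannot be told apart in these comparisons. Skin was digested longer and with more collagenase than lungs, VAT and colon, colon was also treated with DTT and EDTA, and blood and spleen were not digested with enzyme. For spleen and lungs alone, CD4+ T cells were enriched with a kit before the sort. Nor can a bulk library tell fewer cells with a transcript from less of it per cell.

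Ikzf2 (Helios) was also highest in skin. Skin ST2+ libraries had 1402, 1973, 1748, 2105 and 1962 CPM and skin ST2- libraries 983, 1229, 1579.7, 1885 and 1707 CPM. Every skin ST2+ library lay above every ST2+ library of another tissue, with 1402 to 2105 CPM in skin against 769 to 1392 CPM in the other tissues, whereas skin ST2- libraries overlapped other tissues. Skin was called higher in 4 of 5 comparisons in each population. The exception among ST2- Tregs was VAT, where Ikzf2 averaged 1193 ± 154 CPM (SD, n = 5) and skin did not pass (log2 fold change 0.31 ± 0.15 (SE), adjusted p = 0.149). The exception among ST2+ Tregs was blood, with 1226 ± 116 CPM (SD, n = 4) and a fold of 1.4987, just under the limit, at an adjusted p of 0.00469, and with mouse as a block this was a call (0.65, adjusted p = 7.07e-06; called in 6 of 13 alternative settings). Away from skin, VAT ST2- Tregs exceeded blood ST2- Tregs (log2 fold change 0.60 ± 0.15 (SE), adjusted p = 0.00561), and colon ST2- Tregs were lower than VAT ST2- Tregs (log2 fold change -0.70 ± 0.15 (SE), adjusted p = 0.00499). Neither held in every setting: the first was made in 11 of 13 alternative settings but not with limma or without mouse 2 (adjusted p from 2.85e-05 to 0.0679 over all of them), and the second in 11 of 13 alternative settings but not without mouse 2 or 3 (adjusted p from 1.24e-05 to 0.102 over all of them). Without skin ST2- mouse 4, the library highest in fibroblast markers, and colon ST2- mouse 2, the skin ST2- call against spleen fell under the fold limit (0.57, adjusted p = 0.0056). Ranked by mean, the 14 groups ran from skin ST2+ down to the CD44lo groups of lungs and spleen, and no step between neighbours was called for Ikzf2.

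Ikzf4 (Eos) had a different pattern, with spleen beside skin at the top. Skin ST2+ libraries had 546, 536, 293, 382 and 425 CPM and spleen ST2+ libraries 238, 266, 273, 237 and 206 CPM. Skin ST2+ Tregs were higher than those of each of the other 5 tissues, by 1.79 to 4.67-fold. The smallest of these, against spleen (log2 fold change 0.84 ± 0.27 (SE), adjusted p = 0.0124), was called in 12 of 13 alternative settings but not without mouse 2 (adjusted p from 0.000113 to 0.0562 over all of them). Among ST2- Tregs skin did not stand out, with 258 ± 29.4 CPM (SD, n = 5) against 277 ± 22.3 CPM (SD, n = 5) in spleen, and was called higher than lungs, VAT and colon alone, the call against VAT in 7 of 13 alternative settings but not with all 70 libraries, with sorted cells as a covariate or without mouse 2, 3, 4 or 5 (adjusted p from 0.000696 to 0.145 over all of them). At the other end, VAT ST2+ libraries had 186, 45.3, 47.8, 92.3 and 94.0 CPM, a mean of 93.1 ± 56.9, and colon ST2+ libraries 119.9, 98.1 and 73.4 CPM. All of them lay below the spleen ST2+ libraries, and VAT mouse 1 stood above the other VAT mice.

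Ikzf4 was lower than in spleen in VAT and colon of both populations, and in lungs of ST2- Tregs. Among ST2- Tregs it was lower than in spleen in lungs (log2 fold change -1.09 ± 0.27 (SE), adjusted p = 0.00670), VAT (log2 fold change -0.88 ± 0.27 (SE), adjusted p = 0.0347) and colon (log2 fold change -1.32 ± 0.28 (SE), adjusted p = 0.000419). Among ST2+ Tregs it was lower than in spleen in VAT (log2 fold change -1.38 ± 0.28 (SE), adjusted p = 0.00018) and colon (log2 fold change -1.33 ± 0.33 (SE), adjusted p = 0.00494). With mouse as a block, lungs against spleen (-0.85, adjusted p = 0.0230; called in 4 of 13 alternative settings) and VAT against blood (-0.83, adjusted p = 0.0278; called in 2 of 13 alternative settings) were calls among ST2+ Tregs too. Colon ST2- Tregs were also lower than blood ST2- Tregs (log2 fold change -0.84 ± 0.27 (SE), adjusted p = 0.0256), a call made in 9 of 13 alternative settings but not with limma or without mouse 1, 2 or 3 (adjusted p from 0.0133 to 0.145 over all of them). It was also lost without the colon and skin ST2- libraries highest in fibroblast markers (-0.75, adjusted p = 0.0806). The colon ST2+ call against spleen was made in 11 of 13 alternative settings but not without mouse 3 or 4 (adjusted p from 0.000523 to 0.0676 over all of them), and the VAT ST2- call in 7 of 13 alternative settings but not with all 70 libraries, with sorted cells as a covariate or without mouse 2, 3, 4 or 5 (adjusted p from 0.000708 to 0.189 over all of them). Ikzf4 varied most between mice of the 6 genes, with a biological coefficient of variation of 0.294, against 0.131 for Foxp3, 0.156 for Ctla4, 0.173 for Ikzf2, 0.217 for Izumo1r and 0.265 for Nrp1. The median over all tested genes, most of them less abundant than these 6, was 0.457. In the order of the 14 groups only the step from skin ST2+ to spleen ST2- was a call between neighbours for Ikzf4 (log2 0.65, adjusted p = 0.0494; 32% of tested genes called).

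**Figure D2:**
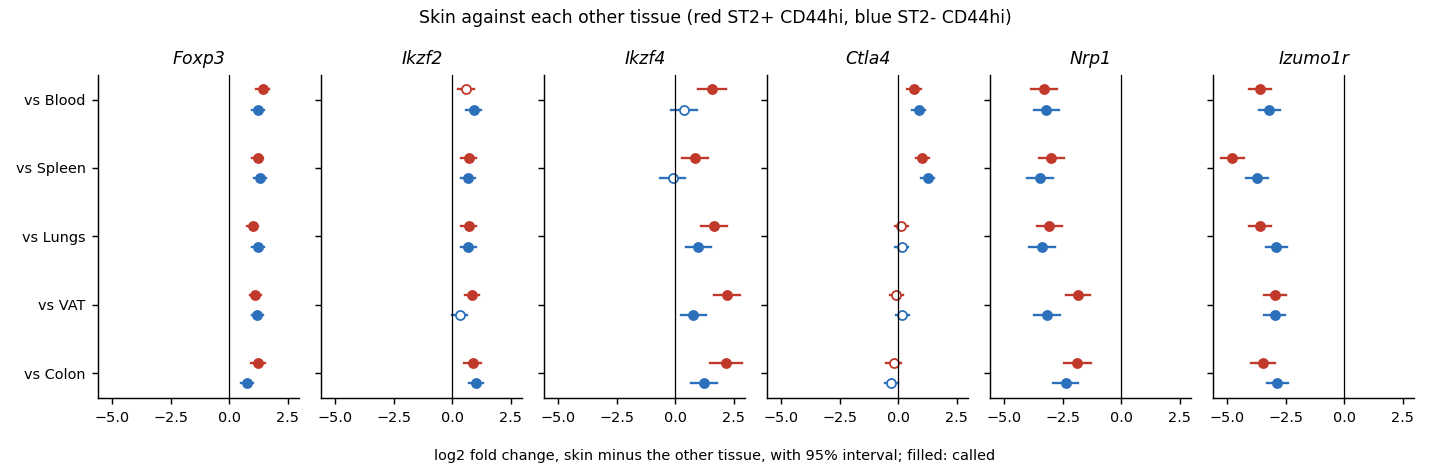
Log2 fold change of skin minus each other tissue for the 6 genes in ST2- and ST2+ CD44hi Tregs; bars are 95% intervals and filled points mark calls. Foxp3 lies above 0 and Nrp1 and Izumo1r lie below 0 against all 5 tissues in both populations, whereas Ctla4 is above 0 and called only against blood and spleen.

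Ctla4, the inhibitory receptor, separated blood and spleen from the other tissues. Among ST2- Tregs, spleen libraries had 366, 458, 423, 426 and 482 CPM and blood libraries 457, 642, 530.2, 546 and 654 CPM, while colon libraries had 1270.1, 1318, 1415, 1000 and 1431 CPM. The colon libraries were above all blood and spleen libraries. Colon ST2- Tregs had the highest mean of the 14 groups, 1287 ± 174 CPM (SD, n = 5). Against spleen ST2- Tregs, Ctla4 was higher in lungs (log2 fold change 1.11 ± 0.14 (SE), adjusted p = 2.19e-08), VAT (log2 fold change 1.10 ± 0.14 (SE), adjusted p = 2.69e-08), colon (log2 fold change 1.58 ± 0.14 (SE), adjusted p = 3.55e-13) and skin (log2 fold change 1.27 ± 0.14 (SE), adjusted p = 7.48e-11), comparisons that called 4.03, 5.78, 11 and 30.9% of genes. Against blood ST2- Tregs the log2 differences were 0.72, 0.71, 1.19 and 0.87, all called. With all 70 libraries in the fit the lungs and VAT calls against blood were lost (adjusted p up to 0.248 over the alternatives).

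ST2+ Tregs gave much the same grouping for Ctla4, save that lungs were not called above blood, although they were with mouse as a block (0.62, adjusted p = 0.000334; called in 3 of 13 alternative settings). Spleen ST2+ libraries had 410.0, 479.6, 468, 550.4 and 483 CPM, and VAT ST2+ libraries had 798, 994, 911, 972 and 1459 CPM, without overlap. Lungs, VAT, colon and skin exceeded spleen by 0.90, 1.10, 1.21 and 1.02 on the log2 scale, the lungs call being lost with all 70 libraries (0.91, adjusted p = 0.0938). VAT, colon and skin also exceeded blood, by 0.76, 0.87 and 0.68. The call of colon against blood was lost without mouse 3 (0.645, adjusted p = 0.0988), which left colon ST2+ with 2 libraries, and that of VAT against blood without mouse 5, where the fold dropped below the limit (0.582, adjusted p = 0.0258). No pair among lungs, VAT, colon and skin was called for Ctla4 in either population, nor was any step between neighbours in the order of the 14 groups.

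Nrp1 (neuropilin-1) was lowest in skin. Skin ST2+ libraries had 99.3, 104, 29.7, 60.1 and 36.7 CPM and skin ST2- libraries 66.7, 37.1, 55.5, 39.8 and 20.5 CPM. No skin library reached the range of the other tissues, since ST2- libraries had 20.5 to 66.7 CPM in skin against 108 to 579.6 CPM in the other tissues, and ST2+ libraries 29.7 to 104 CPM in skin against 157 to 741 CPM in the other tissues. The means were 66.0 ± 34.5 CPM (SD, n = 5) and 43.9 ± 17.8 CPM (SD, n = 5), against 648 ± 78.6 CPM (SD, n = 4) in blood ST2+, the highest group. Skin was lower than each of the other 5 tissues, by 3.63 to 9.77-fold among ST2+ and 5.15 to 11.1-fold among ST2- Tregs, with adjusted p of at most 1.36e-06. The next group above skin was spleen CD44lo, and that step was the only call between neighbours in the order of the 14 groups (log2 1.505, adjusted p = 2.7e-06; 36.7% of tested genes called).

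Outside skin, Nrp1 was lower in colon, and in VAT for ST2+ Tregs alone, than in blood, spleen and lungs. VAT ST2+ libraries had 349, 228, 166, 300.4 and 157 CPM and colon ST2+ libraries 249.8, 190.2 and 294 CPM, against 429, 589, 555, 527 and 529 CPM in spleen ST2+ libraries. The VAT libraries lay below all spleen libraries. VAT ST2+ Tregs differed from blood, spleen and lungs by -1.43, -1.13 and -1.21 on the log2 scale, and colon ST2+ Tregs by -1.40, -1.10 and -1.19. Among ST2- Tregs the colon differences were -0.83, -1.10 and -1.01, all called, whereas VAT was called against none of these 3 tissues. Colon ST2- was called below VAT ST2- with mouse as a block (-0.81, adjusted p = 0.0434; called in 3 of 13 alternative settings) but not without it (adjusted p = 0.0600). Colon ST2+ lost its call against lungs without mouse 1, 3 or 4 (adjusted p up to 0.145 over the alternatives) and against spleen without mouse 3 (-0.957, adjusted p = 0.115). Colon ST2- lost its calls against blood and lungs without mouse 5, the lowest colon ST2- library at 108 CPM, where they were -0.557 (adjusted p = 0.105) and -0.786 (adjusted p = 0.0508).

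Izumo1r (folate receptor 4) had the widest range of the 6 genes and ran from spleen at the top to skin at the bottom. Spleen ST2- libraries had 674, 747, 757, 678 and 702 CPM and skin ST2- libraries 51.3, 28.3, 80.4, 47.5 and 59.8 CPM. Skin ST2+ libraries were lower still, with 20.5, 27.1, 27.3, 13.4 and 23.2 CPM, from counts of 16 and upward. Skin libraries did not overlap other tissues in either population, with 28.3 to 80.4 CPM in skin against 291 to 757 CPM in the other tissues among ST2- and 13.4 to 27.3 CPM in skin against 55.6 to 649 CPM in the other tissues among ST2+ libraries. Skin was lower than each of the other 5 tissues, by 7.27 to 13.3-fold among ST2- and 7.82 to 27.7-fold among ST2+ Tregs, with adjusted p of at most 2.8e-15. The skin calls of Foxp3, Nrp1 and Izumo1r were kept in all 13 alternative settings and without the libraries highest in fibroblast markers. The summed T cell markers were 2149.6 to 2722 CPM in skin and 2369.9 to 3297 CPM in the other groups, and of the epithelial markers Krt8 was at 0 in every skin library while Krt14 reached 565 CPM in skin ST2- and 309 CPM in skin ST2+ libraries.

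Spleen was highest for Izumo1r in both populations. Among ST2- Tregs, lungs, VAT and colon differed from spleen by -0.83, -0.76 and -0.87 on the log2 scale, all called, and blood was not called different. Among ST2+ Tregs, spleen exceeded blood (log2 fold change 1.18 ± 0.22 (SE), adjusted p = 0.000235), and lungs, VAT and colon differed from spleen by -1.18, -1.82 and -1.32, all called. VAT ST2+ libraries spread widely, with 258, 117, 55.6, 213 and 235 CPM for mice 1 to 5. Of the calls against spleen, VAT ST2- was made in 10 of 13 alternative settings but not with sorted cells as a covariate or without mouse 4 or 5 (adjusted p from 4.44e-07 to 0.0957 over all of them), and lungs ST2- in 12 of 13 alternative settings but not without mouse 5 (adjusted p from 8.62e-10 to 0.0638 over all of them). VAT ST2+ Tregs were also below blood ST2+ Tregs (log2 fold change -0.64 ± 0.21 (SE), adjusted p = 0.0381), a call made in 10 of 13 alternative settings but not without mouse 2, 3 or 5 (adjusted p from 0.00508 to 0.354 over all of them). Below lungs ST2+ Tregs they were a call with mouse as a block (-0.67, adjusted p = 0.0382; called in 5 of 13 alternative settings) and without the colon ST2+ libraries (-0.65, adjusted p = 0.0494), but not in the fit of all 67 libraries without the block (adjusted p = 0.0546). In the order of the 14 groups, the step from VAT ST2+ to skin ST2- (log2 1.71, 20.8% of tested genes called) and the step from skin ST2- to skin ST2+ (log2 1.25) were calls between neighbours.

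Counted over genes and the 15 tissue pairs of a population, the 6 genes gave 42 calls of 90 comparisons among ST2- Tregs (11.8% of all genes and pairs tested) and 44 of 90 among ST2+ Tregs (12.1%). Among tested genes the 6 lay at percentiles 82.3 to 99.9 by level per kb. By biological coefficient of variation they lay at percentiles 3.22 to 31.5. The shares of all genes are thus not from genes of like level and spread. By gene, ST2- calls were 5 for Foxp3, 6 for Ikzf2, 7 for Ikzf4 and 8 each for Ctla4, Nrp1 and Izumo1r. ST2+ calls were 5, 4, 7, 7, 11 and 10 in the same order. A test of any difference between the 6 tissues gave an adjusted p of at most 8.99e-05 for each gene in each population, where 43.5% of ST2- and 47.6% of ST2+ tested genes passed. Without the 3 colon ST2+ libraries, the 32 calls among the 60 ST2+ comparisons of the other tissues were kept, and Izumo1r between VAT and lungs was added. Without the 1 colon and 1 skin ST2- library highest in fibroblast markers, 40 of the 42 ST2- calls were kept, and those lost were Ikzf2 in skin against spleen and Ikzf4 in colon against blood.

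**Figure D3:**
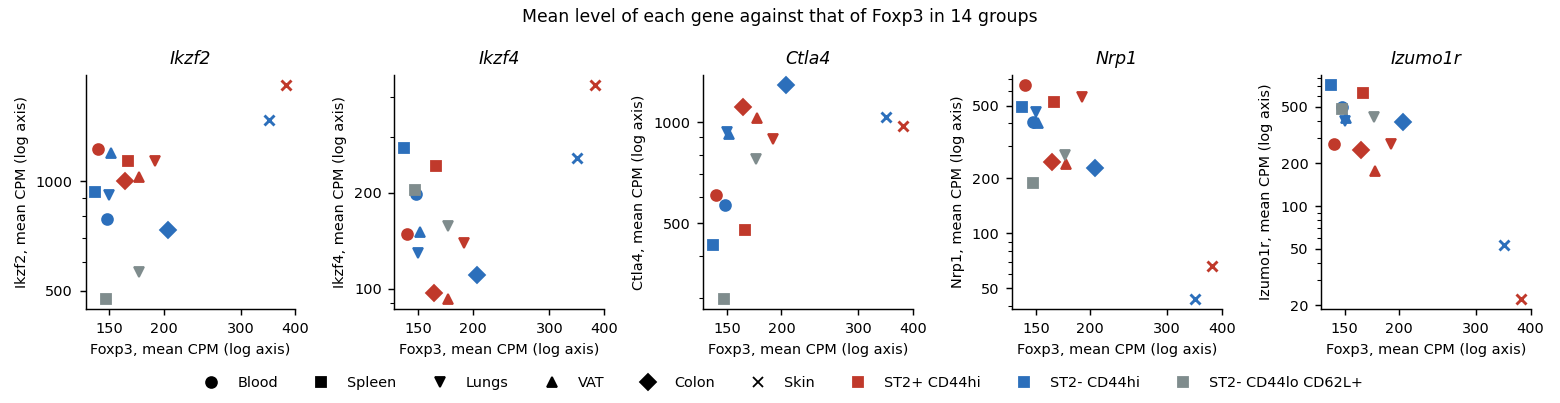
Group mean of each of the other 5 genes against the group mean of Foxp3 in the 14 groups (CPM, log axes), with shapes for tissues and colours for populations. The skin groups stand apart at high Foxp3 with high Ikzf2 and low Nrp1 and Izumo1r, and Ctla4 shows no such split.

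The 6 genes thus did not move as 1 block. Over the 14 group means of log2 CPM, Foxp3 and Izumo1r had r = -0.90, Foxp3 and Nrp1 -0.87, Nrp1 and Izumo1r 0.81, and Foxp3 and Ikzf2 0.55. The groups share mice, and the skin groups sit at the end of each of these relations, so the values are descriptions. Between libraries of the same group, after group means were removed, the same pairs had r of -0.24, -0.26, 0.18 and 0.23 over 67 libraries. The strongest within-group relation was between Ikzf2 and Ctla4, r = 0.50, and Ikzf4 and Ctla4 had r = -0.42. Mouse was not removed, and the 67 libraries come from 5 mice. Mouse 1 had the lowest Ikzf2 of its group wherever it was kept, save in VAT ST2+ Tregs. These within-group r therefore also hold differences between animals, whose share was not tested.

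Genes with the most similar pattern over the 14 group means were taken by Pearson r on log2 CPM. For Foxp3 they were Capns2 (0.966), Dennd5a (0.959) and Hsp90ab1 (0.957), for Ikzf2 Kif13b (0.967), Csgalnact1 (0.954) and Xiap (0.950) and for Ikzf4 Rnf139 (0.904), Prpf39 (0.890) and Tapbpl (0.890). For Ctla4 they were Junb (0.963), Tnfaip3 (0.953) and Rgs2 (0.948), among them the AP-1 subunit gene Junb and Tnfaip3, which encodes the NF-kappaB inhibitor A20. For Nrp1 they included Tmco6 (0.957) and Bin3 (0.937), and for Izumo1r they were P2rx7 (0.976), Ankmy2 (0.976) and C2cd5 (0.972). P2rx7, the top gene for Izumo1r, encodes an ATP-gated ion channel. None of the 6 genes was among the nearest 3 of another.

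The next comparison set ST2+ against ST2- CD44hi Tregs of 1 tissue, the question of the study. Izumo1r was lower in ST2+ Tregs, and of the other 5 genes only Ikzf2 gave a call, in blood. Of 36 comparisons, 4 were called (1.42% of all genes and tissues tested), 3 of them Izumo1r. By tissue, 4.04% of tested genes were called in blood, 3.12% in VAT, 0.782% in lungs, 0.319% in spleen, 0.213% in skin and 0.0683% in colon. In VAT, Izumo1r was 258, 117, 55.6, 213 and 235 CPM in ST2+ and 528, 484, 339, 368 and 383 CPM in ST2- libraries of mice 1 to 5. Every ST2+ library lay below every ST2- library, and Izumo1r was 2.39-fold lower (log2 fold change -1.26 ± 0.20 (SE), adjusted p = 2.8e-05). In blood, the ST2+ libraries of mice 2 to 5 had 346, 212, 241 and 298 CPM and the ST2- libraries 474, 582, 445, 407 and 572 CPM. These groups did not overlap either, and the fold was 1.81 (log2 fold change -0.85 ± 0.22 (SE), adjusted p = 0.0112).

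In skin, where Izumo1r was low in both populations (values above), it was 2.38-fold lower in ST2+ Tregs (log2 fold change -1.25 ± 0.24 (SE), adjusted p = 0.00446), again without overlap. Spleen, lungs and colon gave -0.19, -0.55 and -0.64 on the log2 scale, none called. In each tissue, every mouse with both libraries had less Izumo1r in its ST2+ library, 4 of 4 mice in blood, 3 of 3 in colon and 5 of 5 in spleen, lungs, VAT and skin. The VAT call was made in 13 of 14 alternative settings but not with each tissue fitted alone (adjusted p from 1.14e-07 to 0.110 over all of them). The blood call was made in 11 of 14 alternative settings but not with all 70 libraries or without mouse 4 or 5 (adjusted p from 0.00191 to 0.0867 over all of them), and the skin call in 9 of 14 alternative settings but not with limma, with each tissue fitted alone or without mouse 1, 4 or 5 (adjusted p from 4.22e-05 to 0.564 over all of them).

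**Figure D4:**
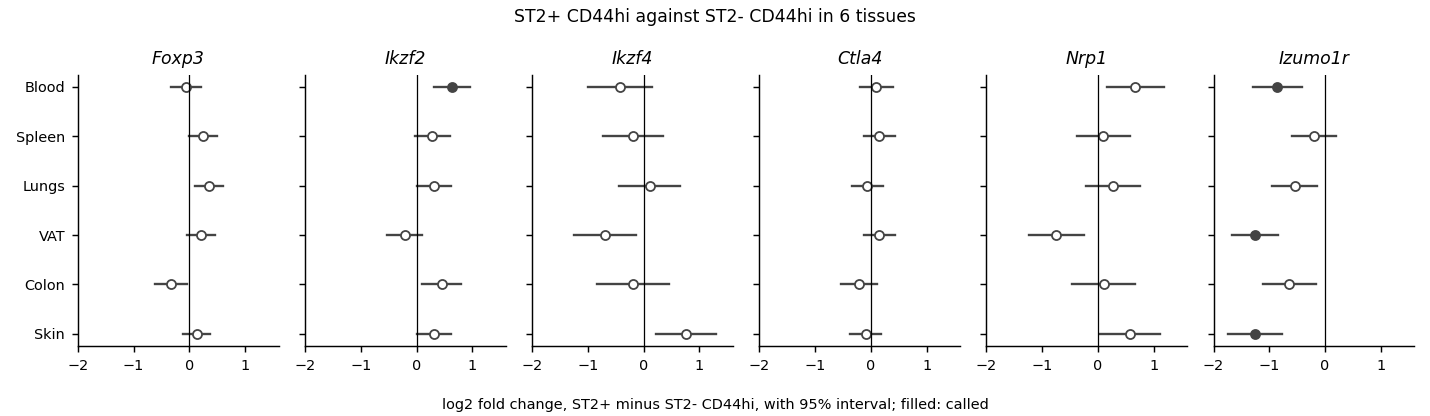
Log2 fold change of ST2+ minus ST2- CD44hi Tregs for the 6 genes in each tissue; bars are 95% intervals and filled points mark calls. Izumo1r lies below 0 in all 6 tissues and is called in blood, VAT and skin, and Ikzf2 is called in blood.

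Ikzf2 was higher in blood ST2+ Tregs, with 1392, 1137, 1156 and 1220.1 CPM in mice 2 to 5 against 605, 737, 749, 940.4 and 904 CPM in mice 1 to 5. The groups did not overlap, and the fold was 1.56 (log2 fold change 0.64 ± 0.16 (SE), adjusted p = 0.0118). It lies close to the fold limit: the call was made in 9 of 14 alternative settings but not with limma, with mouse as a block or without mouse 1, 2 or 3 (adjusted p from 0.000635 to 0.143 over all of them), and with mouse as a block the difference was 0.573 (adjusted p = 0.000635), under the limit. Without mouse 1, 2 or 3 it was 0.558 (adjusted p = 0.00193), 0.549 (0.143) and 0.69 (0.0688). Mouse 1 had a blood ST2- library, the lowest there, but no blood ST2+ library in the fit, so the 2 groups held unlike sets of mice. It was also the lowest mouse for Ikzf2 in every other group where it was kept, save VAT ST2+. Ikzf2 was also higher in the ST2+ library of every mouse in spleen, lungs, colon and skin, where the log2 differences of 0.29, 0.31, 0.45 and 0.32 were not called. In VAT it was higher in 1 of 5 mice, with a difference of -0.21.

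The other 4 genes gave no call between ST2+ and ST2- Tregs. For Foxp3 the differences ran from -0.33 in colon (95% interval -0.62 to -0.034) to 0.35 in lungs (0.098 to 0.60). For Ctla4 they ran from -0.22 in colon (-0.54 to 0.10) to 0.15 in VAT (-0.12 to 0.43), the narrowest spread of the 6. Nrp1 in VAT was lower in the ST2+ library of all 5 mice, with 349, 228, 166, 300.4 and 157 CPM against 504, 513, 378, 336 and 284 CPM, and groups overlapped (log2 fold change -0.75 ± 0.24 (SE), adjusted p = 0.0705). With mouse as a block this VAT difference was a call, at -0.755 and an adjusted p of 0.0483. In blood Nrp1 was higher in the ST2+ library of all 4 mice (log2 fold change 0.67 ± 0.25 (SE), adjusted p = 0.119), and without mouse 5 this was a call, at 0.843 and an adjusted p of 0.0485. Ikzf4 in skin was higher in the ST2+ library of all 5 mice, but did not pass (log2 fold change 0.76 ± 0.27 (SE), adjusted p = 0.322).

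Whether the ST2 difference itself varied between tissues was tested as an interaction over the 6 tissues. None of the 6 genes passed (1.43% of tested genes did), with adjusted p of 0.105 for Nrp1, 0.115 for Izumo1r, 0.187 for Ikzf4, 0.206 for Foxp3, 0.206 for Ikzf2 and 0.812 for Ctla4 in the edgeR fit. At an unadjusted p under 0.05, 5 of the 6 passed, all but Ctla4. With limma 3 passed the adjusted threshold, Ikzf4, Nrp1 and Izumo1r, with DESeq2 2, Nrp1 and Izumo1r, and with mouse as a block 1, Ikzf2 (adjusted p = 0.0165). The share of all tested genes that passed is not given here for the unadjusted threshold or for these settings. These counts are therefore no evidence that the 6 genes differ from other genes. Of the 15 pairs of tissues, compared in a test chosen after seeing the data, the ST2 difference passed in 1, blood and VAT, for Ikzf2 and Nrp1 (2.42% of tested genes passed in that pair).

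CD44hi and CD44lo CD62L+ Tregs, both ST2-, could be compared in spleen and lungs. Ikzf2 and Nrp1 were higher in CD44hi Tregs in both tissues, and Foxp3 was not called, giving 4 calls of 12 comparisons (5.28% of all genes and tissues tested, 5.03% in spleen and 5.53% in lungs). In spleen, Ikzf2 was 673, 934, 1022, 998 and 1033 CPM in CD44hi and 377, 518, 527, 418 and 537 CPM in CD44lo libraries of mice 1 to 5. The populations did not overlap, with a fold of 1.96 (log2 fold change 0.97 ± 0.16 (SE), adjusted p = 5.43e-06). In lungs, Ikzf2 was 759.7, 987, 886, 961 and 997 CPM in CD44hi and 343, 611, 555, 706 and 594 CPM in CD44lo libraries, again without overlap, and 1.64-fold higher (log2 fold change 0.71 ± 0.16 (SE), adjusted p = 0.00112).

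Nrp1 in spleen was 443, 576, 579.6, 410.3 and 448 CPM in CD44hi and 253, 212, 137, 198 and 141 CPM in CD44lo libraries, a fold of 2.61 (log2 fold change 1.38 ± 0.25 (SE), adjusted p = 4.16e-05). In lungs it was 399.9, 476, 480.0, 435 and 517 CPM and 260.0, 253, 247, 265 and 318 CPM, a fold of 1.72 (log2 fold change 0.78 ± 0.24 (SE), adjusted p = 0.0385). Populations did not overlap in either tissue. The lungs call was made in 9 of 14 alternative settings but not with all 70 libraries or without mouse 1, 2, 3 or 4 (adjusted p from 0.000412 to 0.147 over all of them).

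**Figure D5:**
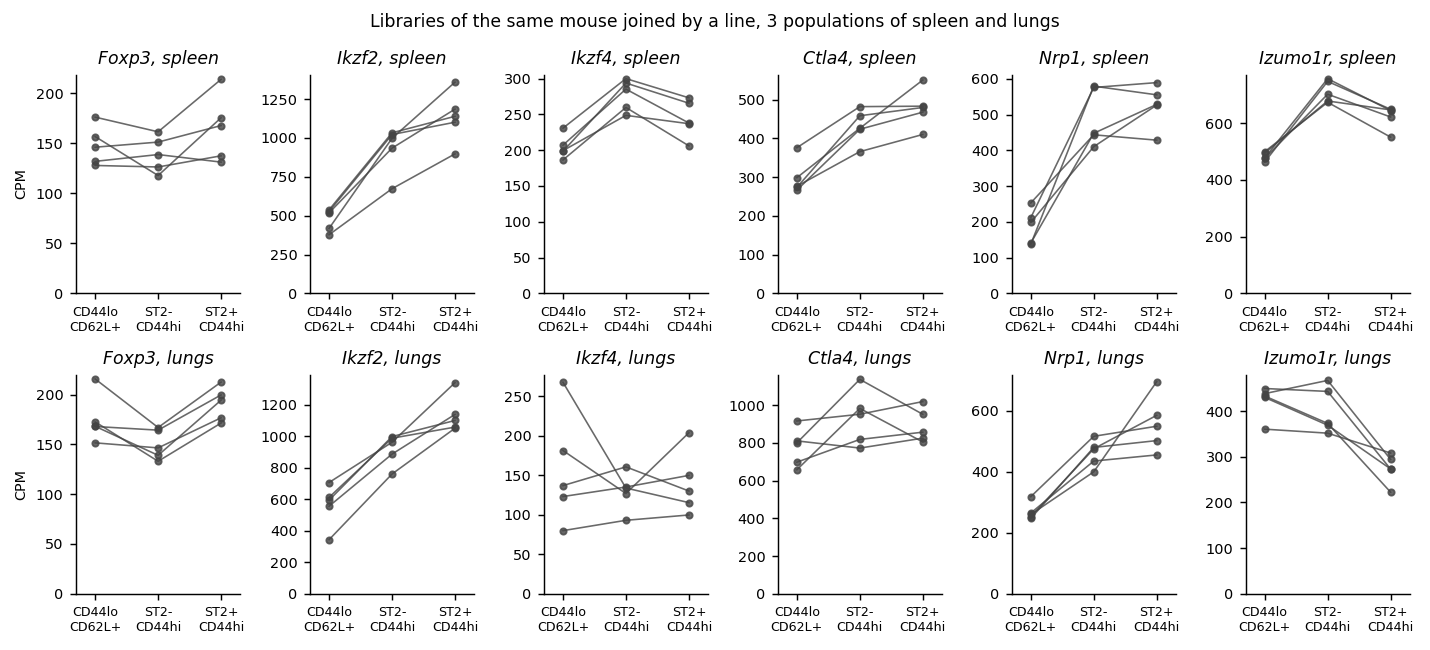
CPM of the 6 genes in ST2- CD44lo CD62L+, ST2- CD44hi and ST2+ CD44hi Tregs of spleen and lungs, with libraries of the same mouse joined by a line (axes start at 0). Ikzf2 and Nrp1 rise from CD44lo to CD44hi in every mouse in both tissues, and Foxp3 is higher in CD44hi libraries in 2 of 5 mice in spleen and 0 of 5 in lungs.

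Foxp3 differed by -0.087 (95% interval -0.34 to 0.16) in spleen and -0.22 (-0.47 to 0.026) in lungs on the log2 scale, so a 1.5-fold difference lay outside both intervals on the side of higher levels in CD44hi Tregs. Ctla4 in spleen was higher in the CD44hi library of all 5 mice (log2 fold change 0.53 ± 0.14 (SE), adjusted p = 0.0100), but its fold of 1.45 was under the limit, and in lungs it differed by 0.26. Izumo1r and Ikzf4 were higher in the CD44hi library of all 5 mice in spleen, without overlap, with differences of 0.56 (adjusted p = 0.0911) and 0.44 on the log2 scale, neither called. For none of the 6 did a difference of the CD44 effect between lungs and spleen pass the edgeR test, with adjusted p from 0.676 to 1 (0.137% of tested genes passed). Of the 6, Izumo1r alone had an unadjusted p under 0.05, at rank 530 by p among the 13173 tested genes.

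CD44lo Tregs of the 2 organs differed in Ctla4. Lungs were digested with enzyme and spleen was not, so organ and handling cannot be told apart here. The CD44lo libraries of spleen had 276, 273, 266, 298 and 376 CPM and those of lungs 658, 801, 811, 917 and 698 CPM, without overlap. The difference, spleen minus lungs, was a log2 fold change of -1.38 ± 0.14 (SE), adjusted p = 4.97e-11, in a comparison that called 3.16% of genes. The other 5 genes were not called between the same groups, and Nrp1 had the next largest difference (log2 fold change -0.51 ± 0.24 (SE), adjusted p = 0.305). Against the same CD44lo groups, ST2+ CD44hi Tregs had more Ikzf2 (log2 1.26 in spleen and 1.02 in lungs) and Nrp1 (1.48 and 1.05), more Ctla4 in spleen (0.68) and less Izumo1r in lungs (-0.62). These 6 calls of 12 stand beside 7.17% of genes called in spleen and 12% in lungs, and they share the CD44lo libraries with the comparison before.

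Genes known to act with the 6 were followed as lists, and values below are log2 differences, for ST2- and then ST2+ Tregs where a pair is given. Between skin and spleen the median of all tested genes was 0 and -0.0079. That comparison called 30.9% of all tested genes among ST2- and 29.1% among ST2+ Tregs. ST2+ against ST2- called 1.42% of all genes and tissues tested, and CD44hi against CD44lo 5.28%. The lists are short, and their counts were not tested against these shares. Of the 5 Ikaros family genes (Ikzf1 to Ikzf5, with Ikzf2 and Ikzf4 among them), 2 were higher and none lower in skin than in spleen among ST2- Tregs, with a median log2 difference of 0.66. Among ST2+ Tregs 3 were higher and none lower, with a median of 0.69. Ikzf3, which encodes Aiolos, rose most, by 2.397 ± 0.21 (SE) and 2.03 ± 0.20 (SE). In blood, Ikzf3 was higher in ST2+ Tregs by 0.88 ± 0.21 (SE), so both calls of this list among its 30 ST2 comparisons were in blood. Ikzf1 (Ikaros) was lower in CD44hi than CD44lo Tregs of lungs, with a difference of -0.77 ± 0.23 (SE).

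Of 18 factors that act on the Foxp3 locus, 6 were higher and 1 was lower in skin than in spleen among ST2- Tregs, and 9 and 1 among ST2+ Tregs, with medians of 0.45 and 0.73. Of all tested genes, 30.9 and 29.1% were called. The factors higher in skin are named for their size of change. They included Rel, the NF-kappaB subunit c-Rel that promotes Foxp3 induction (2.61 ± 0.21 (SE) and 3.30 ± 0.22 (SE)), and Runx3, a partner of Foxp3 (1.41 ± 0.33 (SE) and 1.45 ± 0.33 (SE)). They also included Stat5a, which carries the interleukin-2 signal (1.28 ± 0.31 (SE) and 2.12 ± 0.32 (SE)). Of 108 comparisons of ST2+ with ST2- Tregs, none was higher and 5 were lower (1.42% of all genes and tissues tested were called). Among these was Satb1, a chromatin organiser, in blood (-2.27 ± 0.43 (SE)) and VAT (-1.996 ± 0.47 (SE)). Satb1 was also lower in CD44hi than CD44lo Tregs of spleen (-2.20 ± 0.39 (SE)) and lungs (-1.69 ± 0.38 (SE)), and Nfatc1 was higher in both (1.33 ± 0.18 (SE) and 0.64 ± 0.18 (SE)).

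Of 15 other surface genes of the Treg signature, 8 were higher and 2 lower in skin than in spleen among ST2- Tregs (median 0.81), and 8 and 3 among ST2+ Tregs (median 0.67). Of all tested genes, skin against spleen called 30.9 and 29.1%. The CD44 comparisons called 5.03% in spleen and 5.53% in lungs, and ST2 in blood 4.04%. In CD44hi against CD44lo Tregs of spleen 8 were higher and none lower (median 1.11), led by Tigit, an inhibitory receptor, at 203 against 1.74 CPM, and in lungs 5 were higher and 2 lower. In blood, ST2+ Tregs had 4 of the 15 higher and 3 lower, such as Klrg1, a receptor of terminally differentiated Tregs, at 489 against 12.5 CPM, and Gpr83, an orphan receptor of Tregs, at 48.6 against 240.1 CPM. In VAT, Il2ra (CD25) was higher in ST2+ Tregs (1.63 ± 0.16 (SE)) and Lrrc32, which encodes the TGF-beta anchor GARP, was lower (-1.79 ± 0.40 (SE)). Members of this list thus moved in opposite directions, as the 6 identity genes did.

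Of 8 partners of CTLA-4, 2 were higher and 1 lower in skin than in spleen among ST2- Tregs (median 0.39), and 2 and 2 among ST2+ Tregs (median 0.33). The share of all tested genes was 30.9 and 29.1%, also for the neuropilin list below. The costimulatory receptors Icos (2.29 ± 0.15 (SE) and 1.76 ± 0.15 (SE)) and Cd28 (1.34 ± 0.12 (SE) and 1.73 ± 0.12 (SE)) were the genes that rose. Of 48 comparisons of these partners between ST2+ and ST2- Tregs, 1 was higher and 3 were lower (1.42% of all genes and tissues tested were called). Of 9 tested neuropilin and semaphorin genes, 4 were higher and 1 lower in skin than in spleen among ST2- Tregs, and 3 and 1 among ST2+ Tregs. Gipc1, whose product binds the tail of neuropilin-1, was the one that fell with Nrp1 (-1.76 ± 0.26 (SE) and -1.54 ± 0.26 (SE)). None of the 9 was called between ST2+ and ST2- Tregs in any tissue. The other folate receptor genes, Folr1 and Folr2, did not pass the filter on low counts, so Izumo1r was the only tested gene of its family. In the CD44 comparisons the median log2 difference of all tested genes was 0.0052 in spleen and 0.0061 in lungs, and that of the 6 identity genes was 0.55 in spleen and 0.094 in lungs.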

How the data were processed

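Cells of 5 mice were sorted into 70 pools in 14 groups given by the tissue and population labels. The authors made SMART-Seq v4 and NexteraXT libraries, aligned single-end reads with STAR to GRCm38 and counted reads per Ensembl gene with HTSeq 0.4.1, and the deposited values are these raw counts. No source used here gives the counting mode or strand setting.

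Libraries with over 1000000 counts were used (67 of 70). A protein-coding gene was tested if 10% or more of these libraries had 1 CPM or more of it (13173 genes), using edgeR 4.0.16 (TMM, quasi-likelihood, 1 term per group over all libraries), with Benjamini-Hochberg adjustment within each comparison and calls at a fold of 1.5 and an adjusted p of 0.05. Fold changes and CPM per kb used GENCODE M21 names and exon lengths, matched for 53274 of 53465 identifiers. The study's methods used limma with quality weights, which, with DESeq2 1.42.0, other filters, RLE factors, all 70 libraries, sorted cells as a covariate and each mouse left out, was run as an alternative. Scripts were tested on simulated data.

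The named genes are the 6 members, per list the called genes with the largest changes (at most 4), and the 3 genes most like each member over group means (1 of them is not reported here). Members and lists were chosen with earlier results of these data known. Replicate numbers mark the same animal, which pairs the samples, and deviations from group means had a mean correlation of 0.0834 in 27 same-mouse pairs of groups against -0.0200 in 108 pairs of different mice. These correlations ran over 9207 genes and do not give the size of mouse differences in a single gene. For Ikzf2 the unadjusted interaction p in edgeR was 0.0124 without a mouse block and 0.000143 with it. The p-values of the main fit measure the spread between libraries within groups, pooled over all 14 groups. That fit had no term for mouse, so it treated libraries of the same 5 mice as independent.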

Additional observations from a re-analysis of the deposited data

Results flagged for a closer look

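The difference between ST2+ and ST2- Tregs was compared between pairs of tissues in the edgeR fit, a test chosen after seeing the data. It passed for 2 genes, both between blood and VAT, a pair in which 2.42% of tested genes passed. For Ikzf2 the effect in blood exceeded that in VAT by 0.85 (adjusted p = 0.0243) on the log2 scale, with ST2+ higher in 4 of 4 mice in blood and 1 of 5 in VAT. For Nrp1 it did so by 1.42 (adjusted p = 0.0167), with ST2+ higher in 4 of 4 mice in blood and 0 of 5 in VAT. For mouse 1 the fit had a blood ST2- library, the lowest there for Ikzf2 at 605 CPM, but no blood ST2+ library.

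Other pairs had every mouse move one way in one tissue and the other way in the other, without passing this test. They were picked by this rule from 15 pairs of tissues for each of the 6 genes, some with as few as 3 mice in a tissue. The share of all tested genes that did the same was not counted. For Nrp1 the effect in lungs minus that in VAT was 1.02 (adjusted p = 0.239). For Ikzf4, higher in ST2+ Tregs of skin in all 5 mice and lower in all mice in blood, spleen and VAT, the effect minus that in skin was -1.18 (adjusted p = 0.124) for blood, -0.95 (adjusted p = 0.600) for spleen and -1.45 (adjusted p = 0.0510) for VAT. For Foxp3, lower in ST2+ Tregs of colon in all 3 mice, the difference was 0.67 (adjusted p = 0.499) for lungs minus colon and -0.46 (adjusted p = 0.660) for colon minus skin.

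Each gene was looked at in each group of 4 or 5 libraries, which made 78 sets that share libraries between genes. In 7 of these sets 1 library stood far from the others, where chance gives about 1 in 20. Foxp3 was high in VAT ST2+ mouse 3, at 239.01 CPM, and Ikzf4 in VAT ST2- mouse 1, at 284 CPM. In the VAT ST2- group, mouse 1 alone had a full pool of 220 cells. Mouse 1 was also highest for Ikzf4 in VAT ST2+, at 186 CPM, where every pool had 220 cells. It was highest in blood ST2- too, at 308 CPM from 166 cells, but not in every group. Neither pool size nor mouse was tested for this. Ikzf2 was low in VAT ST2+ mouse 2, at 769 CPM, and in spleen ST2- mouse 1, at 673 CPM. Mouse 1 was also lowest for Ikzf2 in its other kept groups, save VAT ST2+. Nrp1 was high in lungs CD44lo mouse 5, at 318 CPM. Izumo1r was low in spleen ST2+ mouse 1, at 551 CPM, and in lungs CD44lo mouse 2, at 360.4 CPM.

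The 3 libraries left out for depth also held counts of these genes. Blood ST2+ mouse 1 had 1591 in all among 488666 counts, of which 156 were Foxp3, 790 Ikzf2 and only 5 Ctla4. Colon ST2+ mouse 5 had 247 among 62333 counts, and colon ST2+ mouse 2 had 11 among 3582.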

How the results depend on the processing

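Of the 4 calls between ST2+ and ST2- Tregs, limma kept 2 and a fit of each tissue alone 2, DESeq2 made 5 and all 70 libraries gave 3. With 1 mouse left out the count was 2 to 3, and no single call was kept in all 14 alternatives. The CD44 count was 4 and stayed at 3 to 4, and 3 of its 4 calls were kept throughout. The tissue counts of 42 and 44 stayed at 36 to 44 and 39 to 49 over 13 alternatives, with 31 and 36 of the calls kept in each. The interaction count of 0 became 3 with limma, 2 with DESeq2 and 1 with the replicate block, and 0 to 1 with 1 mouse left out. The shares of all tested genes that passed in these settings are not given here. The block by mouse also ended the Ikzf2 call in blood and made Nrp1 in VAT a call, and it changed no other ST2 or CD44 call. Among tissues it lost no call and added 1 among ST2- and 5 among ST2+ Tregs, given beside the results. Of 672 ST2 and CD44 values, 9 changed sign, none of a called difference: Foxp3 in blood became 0.012 with limma, 0.15 with all 70 libraries and 0.067 without mouse 2; Ikzf4 in lungs became -0.0052 with limma and -0.078 without mouse 1; Ctla4 with all 70 libraries became -0.17 in blood and 0.022 in colon; Ikzf4 in colon became 0.17 without mouse 4 and Nrp1 in colon -0.085 without mouse 5. With 1 mouse left out, Foxp3 in blood ran from -0.17 to 0.067, Ikzf4 in lungs from -0.078 to 0.22, Ikzf4 in colon from -0.33 to 0.17 and Nrp1 in colon from -0.085 to 0.32. Of 2340 tissue values, 57 changed sign, none called. The cause of these changes was not tested. Settings without colon ST2+ libraries or without the libraries highest in fibroblast markers were chosen after seeing the data, and left the ST2 count at 4. The low counts of Izumo1r in skin and the 3 and 4 libraries of colon and blood ST2+ Tregs limit what these comparisons can detect.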
